A study of Mus musculus with 7 samples.

Results

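The odorant-binding proteins and nasal lipocalins of the mouse were followed through the names Obp1a, Obp2a, Obp2b, Lcn3, Lcn4, Lcn11, Lcn13 and Lcn14. A probe was taken when its transcript belongs to one of these names in the RefSeq genes of GRCm38.p6. There Lcn13 is a synonym of Obp2a and Lcn14 a synonym of Obp2b, so the 8 names stand for 6 genes. Of these, 5 genes have a probe, 1 probe each, among 32095 genes and transcripts on the array, and no probe was matched to Obp2b. Each of the 5 probes stood well above its background in DEP and in control RNA on every one of the 7 arrays, none was saturated, and all 5 were tested.

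RNA came from the nasal septum and turbinate of female BALB/c mice, and whole tissue was used without sorting of cells. The labels give 6 weeks as the age of the mice, and tissue was taken after the exposure, so exposure time and age at sampling cannot be told apart. Mice of the DEP group breathed nebulised diesel exhaust particles (DEP, the particulate part of diesel engine exhaust) at 100 μg/m3 for 1 hour a day on 5 days a week, and were studied after 4 or 8 weeks. For the controls the study describes saline nebulised in the same way. Each 2-colour array carried DEP RNA in the Cy5 dye and control RNA in the Cy3 dye, with 4 arrays at 4 weeks on 1 slide and 3 arrays at 8 weeks on another, labelled as biological replicates. The dyes were never swapped, so dye and exposure cannot be told apart, nor can slide and exposure time. How many mice stand behind each array, and whether control RNA was shared between arrays, is not given in the sources used here. P-values therefore measure the spread between these arrays.

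Lipocalins are small secreted proteins whose barrel-shaped fold holds a hydrophobic ligand. Odorant-binding proteins are the lipocalins that nasal glands release into the mucus, where they bind airborne odorants above the olfactory epithelium. Lcn3 and Lcn4 are known as vomeronasal secretory proteins, made by glands of the vomeronasal organ and the nasal septum, and the major urinary proteins (Mup) are related lipocalins that carry pheromones. Obp1a lies on the X chromosome and the other genes lie on chromosome 2, where Obp2a, Obp2b, Lcn3 and Lcn11 are near neighbours.

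The promoters are shown because the genes below moved in different ways although several of them sit side by side, and because Obp2a and Obp2b are near copies. Each runs 5′ to 3′ from 250 bases before to 50 bases after the start of the gene, from RefSeq on GRCm38.p6. Capitals mark the motif TATAAA, searched on both strands, the core letters of a TATA box.
Obp1a, chrX:78091325-78091624 (minus strand): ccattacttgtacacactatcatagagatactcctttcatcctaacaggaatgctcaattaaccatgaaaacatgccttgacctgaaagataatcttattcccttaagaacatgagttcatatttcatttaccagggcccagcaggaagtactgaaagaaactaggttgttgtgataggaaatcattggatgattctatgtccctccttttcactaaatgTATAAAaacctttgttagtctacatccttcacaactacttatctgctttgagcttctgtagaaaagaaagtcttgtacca
Obp2a, chr2:25699824-25700123 (plus strand): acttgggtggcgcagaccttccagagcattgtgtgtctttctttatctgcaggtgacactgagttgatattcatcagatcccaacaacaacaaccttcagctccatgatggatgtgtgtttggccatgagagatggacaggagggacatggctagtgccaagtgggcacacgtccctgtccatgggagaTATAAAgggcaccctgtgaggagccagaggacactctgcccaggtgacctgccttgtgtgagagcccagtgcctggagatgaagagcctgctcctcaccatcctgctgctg
Obp2b, chr2:25736757-25737056 (plus strand): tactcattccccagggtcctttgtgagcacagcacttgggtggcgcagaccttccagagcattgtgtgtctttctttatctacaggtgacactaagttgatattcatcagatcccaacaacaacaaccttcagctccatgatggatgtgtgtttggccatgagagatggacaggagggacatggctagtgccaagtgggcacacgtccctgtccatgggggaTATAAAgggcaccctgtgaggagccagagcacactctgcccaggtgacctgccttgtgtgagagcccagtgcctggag
Lcn11, chr2:25776767-25777066 (plus strand): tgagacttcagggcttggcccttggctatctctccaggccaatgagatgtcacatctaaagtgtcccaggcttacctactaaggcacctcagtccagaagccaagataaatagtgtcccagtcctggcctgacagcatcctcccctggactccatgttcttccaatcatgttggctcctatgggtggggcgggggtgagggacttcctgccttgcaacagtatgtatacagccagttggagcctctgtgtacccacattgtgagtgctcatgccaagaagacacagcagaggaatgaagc
Lcn3, chr2:25765283-25765582 (plus strand): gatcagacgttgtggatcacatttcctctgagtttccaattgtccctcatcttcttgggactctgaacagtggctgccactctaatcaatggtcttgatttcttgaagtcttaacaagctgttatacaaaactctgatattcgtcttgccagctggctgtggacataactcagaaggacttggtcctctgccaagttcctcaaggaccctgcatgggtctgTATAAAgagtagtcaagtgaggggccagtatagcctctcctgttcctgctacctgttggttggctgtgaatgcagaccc
Lcn4, chr2:26671233-26671532 (minus strand): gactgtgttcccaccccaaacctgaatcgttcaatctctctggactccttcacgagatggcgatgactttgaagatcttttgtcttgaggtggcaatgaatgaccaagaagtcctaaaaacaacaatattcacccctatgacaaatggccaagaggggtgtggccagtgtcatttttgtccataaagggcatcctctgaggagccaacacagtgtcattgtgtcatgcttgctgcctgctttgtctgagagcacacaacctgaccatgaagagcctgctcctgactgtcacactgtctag
The motif was in the windows of Obp1a, Obp2a, Obp2b and Lcn3, starting 30, 61, 28 and 29 bases before the annotated start, and on the gene's own strand in each. These letters were not in the windows of Lcn11 and Lcn4. Of 32851 promoters of this length, 13.6% hold the motif on either strand. The windows of Obp2a and Obp2b were identical at 263 of 267 aligned positions. Whether the Obp2a probe also binds Obp2b RNA was not tested, since probe sequences were not used here, so its value may be that of both genes.

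After 4 weeks, RNA of Lcn3, Obp2a and Lcn11 was higher in DEP than in control tissue, by 1.25-fold to 1.52-fold, and that of Obp1a and Lcn4 did not pass the test. Other scalings, given further on, took away the calls for Obp2a and Lcn11 and turned the sign of each in 1 setting. This comparison asks what sub-acute exposure does to the carriers of odorants in the mucus. A ratio here is the log2 of DEP over control signal on 1 array after loess normalization, so it is relative to the bulk of genes on that array. On replicates 1 to 4, Lcn3 had log2 ratios of 0.47, 0.54, 0.73 and 0.68. It was thus higher in DEP RNA on all 4 arrays, with a mean of 0.61 (SD 0.12, SE 0.063, adjusted p = 0.00032 by limma), or 1.52-fold. Obp2a, whose product binds odorants in nasal mucus, had log2 ratios of 0.50, 0.48, 0.68 and 0.33, with a mean of 0.50 (SD 0.14, SE 0.13, adjusted p = 0.019 by limma). The log2 ratios of Lcn11 were 0.40, 0.31, 0.37 and 0.22, all above 0 and with the narrowest spread of the 5 genes, and their mean was 0.32 (SD 0.08, SE 0.076, adjusted p = 0.013 by limma).

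Obp1a, the odorant-binding protein gene of the X chromosome, lay on the other side. Its log2 ratios were -0.47, -0.16, -0.19 and -0.20, lower in DEP RNA on all 4 arrays, with replicate 1 well below the rest. The mean of -0.26 (SD 0.14, SE 0.091) missed the threshold, at an adjusted p of 0.06 by limma. For Lcn4, a vomeronasal secretory protein gene, the log2 ratios were -0.26, -0.13, 0.02 and -0.06 and straddled 0. Its mean of -0.11 had a 95% interval of -0.23 to 0.02 (adjusted p = 0.16 by limma). At an adjusted p of at most 0.05, 3 of the 5 genes were higher and 0 lower, where 38.1% of all genes passed in either direction and 21.6% were higher. By limma, 0 of the 5 passed an unadjusted p of at most 0.01 with a 2-fold change, the pair of thresholds of the study, which 1.30% of all genes passed, while 4 of the 5 had an unadjusted p of at most 0.05, Obp1a on the lower side.

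After 8 weeks, Obp1a, Obp2a and Lcn11 were 2.68-fold to 2.96-fold higher in DEP than in control RNA, while Lcn3 was slightly higher and Lcn4 was close to 0. Lcn11 had log2 ratios of 1.79, 1.59 and 1.32 on replicates 1 to 3. The mean was 1.57 (SD 0.24, SE 0.087, adjusted p = 1.1e-05 by limma), the 102nd highest of 20664 genes. Obp1a had log2 ratios of 1.21, 1.55 and 1.75, so it was above 0 on all 3 arrays at 8 weeks and below 0 on all 4 arrays at 4 weeks. Its mean was 1.50 (SD 0.27, SE 0.10, adjusted p = 3.6e-05 by limma). For Obp2a they were 1.78, 1.56 and 0.92. Replicate 3 stood apart as the lowest, but it was still above every 4-week array, and the mean was 1.42 (SD 0.45, SE 0.15, adjusted p = 0.00029 by limma).

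Lcn3 and Lcn4, the vomeronasal secretory protein genes, did not reach 2-fold at 8 weeks. Their probes are less bright than those of Obp1a, Obp2a and Lcn11, a limit taken up further on. Lcn3 had log2 ratios of 0.33, 0.35 and 0.13 at 8 weeks, all below its lowest 4-week value. The mean was 0.27 (SD 0.12, SE 0.072, adjusted p = 0.022 by limma), and it missed the threshold with the scanner's own processed signals (0.04, adjusted p = 0.75), with median centring (0.20, adjusted p = 0.065), with the methods' test of the separate channels (0.27, adjusted p = 0.056), or without replicate 1 (0.24, adjusted p = 0.095) or replicate 2 of 8 weeks (0.23, adjusted p = 0.13). Lcn4 had log2 ratios of 0.09, 0.11 and 0.04, with a mean of 0.08 and a 95% interval of -0.07 to 0.23 (adjusted p = 0.37 by limma). In all, 4 of the 5 genes were higher and 0 lower at an adjusted p of at most 0.05, where 37.3% of all genes passed in either direction and 20.3% were higher. At the thresholds of the study, 3 of the 5 passed, all higher, against 2.94% of all genes in either direction and 2.10% that were higher.

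**Figure D1:**
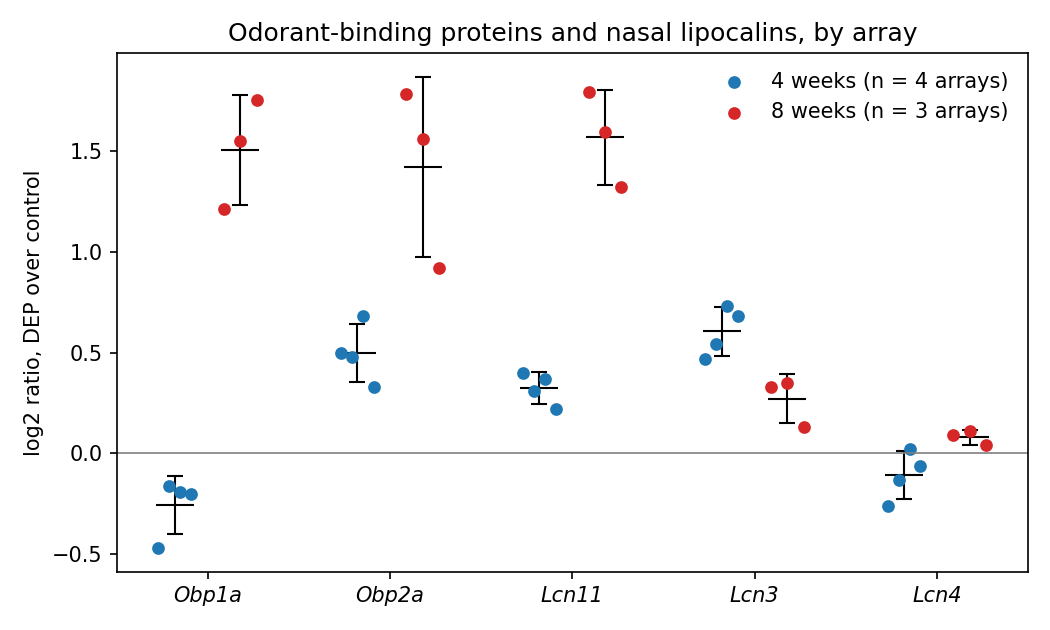
Log2 ratio of DEP over control (vertical axis) of the 5 measured genes (horizontal axis) on each 4-week array (blue, n = 4) and each 8-week array (red, n = 3), with mean and SD in black. Obp1a, Obp2a and Lcn11 lie between 0.92 and 1.79 at 8 weeks, above all of their 4-week values, while Lcn3 and Lcn4 stay at 0.73 or below at both times.

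The brightness of these probes limits how their ratios can be read. Obp1a, Obp2a and Lcn11 are among the brightest probes, with 10 to 40 other probes within 0.5 log2 units of their intensity on an array. The median log2 ratio of those other probes was itself above 0, between 0.15 and 0.74 on the 4-week arrays and between 0.73 and 1.17 on the 8-week arrays. For Lcn3, with 127 to 184 such probes, it was 0.06 to 0.21, and for Lcn4, with 560 to 665, it was -0.04 to 0.04. Each ratio was therefore also taken relative to the median of the probes of like intensity on the same array, a setting chosen after seeing the data. Only the gene's own probe was left out of that median, so probes of the other bright members could be part of it.

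On that scale the rise at 8 weeks was smaller and still passed the test for all 3 genes. Obp1a was higher by 0.60 on the log2 scale (adjusted p = 0.022 by limma), Lcn11 by 0.47 (adjusted p = 0.0025) and Obp2a by 0.38 (adjusted p = 0.026). The single 8-week arrays of Obp2a were at 0.65, 0.44 and 0.05, so the last showed little rise. No gene then reached 2-fold. At 4 weeks Obp1a became lower in DEP RNA, at -0.74 (adjusted p = 0.0051), Obp2a changed sign to -0.13 (adjusted p = 0.31) and Lcn11 fell to 0.05 (adjusted p = 0.55). Lcn3 stayed higher at 4 weeks, at 0.53 (adjusted p = 0.00068), and was 0.12 at 8 weeks (adjusted p = 0.23). For Obp2a and Lcn11 at 4 weeks the scanner's processed signals also gave no call, at 0.35 (adjusted p = 0.07) and -0.06 (adjusted p = 0.56). These same signals put Obp1a at -0.40 (adjusted p = 0.0081). The higher Obp2a at 4 weeks was also lost when replicate 1 (0.50, adjusted p = 0.053), replicate 2 (0.50, adjusted p = 0.051) or replicate 3 of 4 weeks (0.44, adjusted p = 0.063) was left out.

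**Figure D2:**
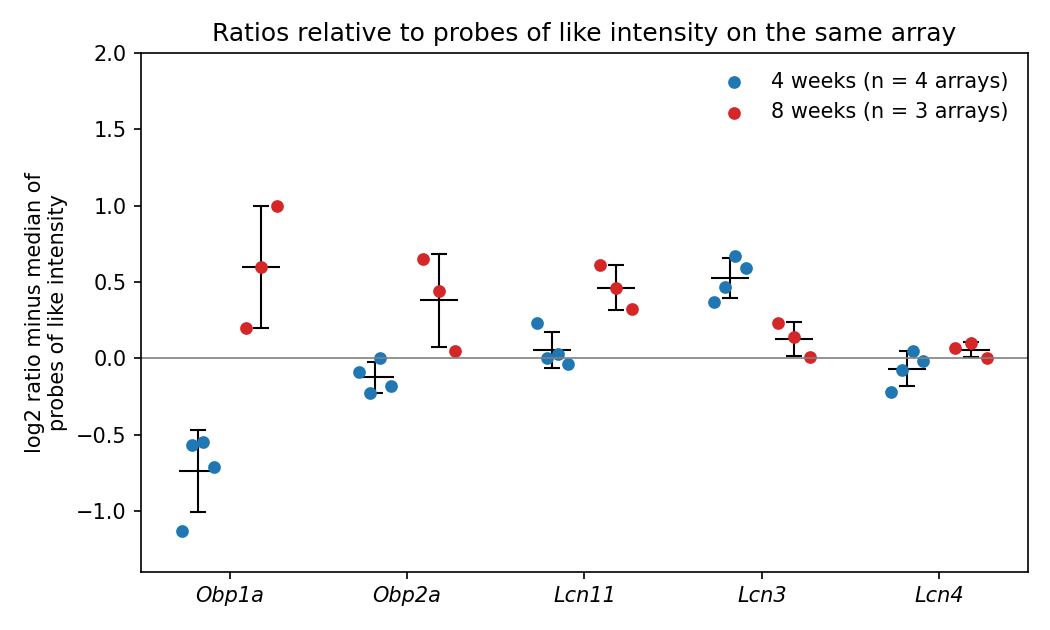
Log2 ratio of each gene minus the median log2 ratio of probes within 0.5 log2 units of its intensity on the same array (vertical axis), for the 4-week (blue, n = 4) and 8-week arrays (red, n = 3), with mean and SD in black. Obp1a runs from -1.13 to -0.55 at 4 weeks and from 0.20 to 1.00 at 8 weeks, and Obp2a and Lcn11 also lie higher at 8 than at 4 weeks on this scale.

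The difference between the exposure times was tested in the same fit. The log2 ratio of Obp1a was 1.76 higher at 8 than at 4 weeks (95% interval 1.44 to 2.08, SE 0.14, adjusted p = 0.00014 by limma). For Lcn11 the difference was 1.24 (0.98 to 1.51, adjusted p = 0.00029) and for Obp2a 0.93 (0.47 to 1.38, adjusted p = 0.011). Lcn3 went the other way, by -0.34 (-0.56 to -0.12, adjusted p = 0.032). For Lcn4 the difference of 0.19 had an interval of -0.01 to 0.38 (adjusted p = 0.13). Of the 5 genes, 3 were thus higher and 1 lower at 8 weeks, where 30.9% of all genes passed, 14.9% higher and 16.1% lower. At the study's thresholds Obp1a and Lcn11 passed in the difference, both higher, against 3.06% of all genes in either direction and 1.90% that were higher.

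Relative to probes of like intensity the differences kept their direction and passed, at 1.34 for Obp1a (adjusted p = 0.0031 by limma), 0.51 for Obp2a (adjusted p = 0.03), 0.41 for Lcn11 (adjusted p = 0.018) and -0.40 for Lcn3 (adjusted p = 0.018). The call for Lcn3 was lost when any of replicates 2 to 4 of 4 weeks or any array of 8 weeks was left out, with differences of -0.38 to -0.27 and adjusted p of 0.052 to 0.099. The 10 spike-in probes, for RNA added during labelling, had log2 ratios that differed by -1.89 to -1.35 between 8 and 4 weeks. Their part in the differences was not tested.

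**Figure D3:**
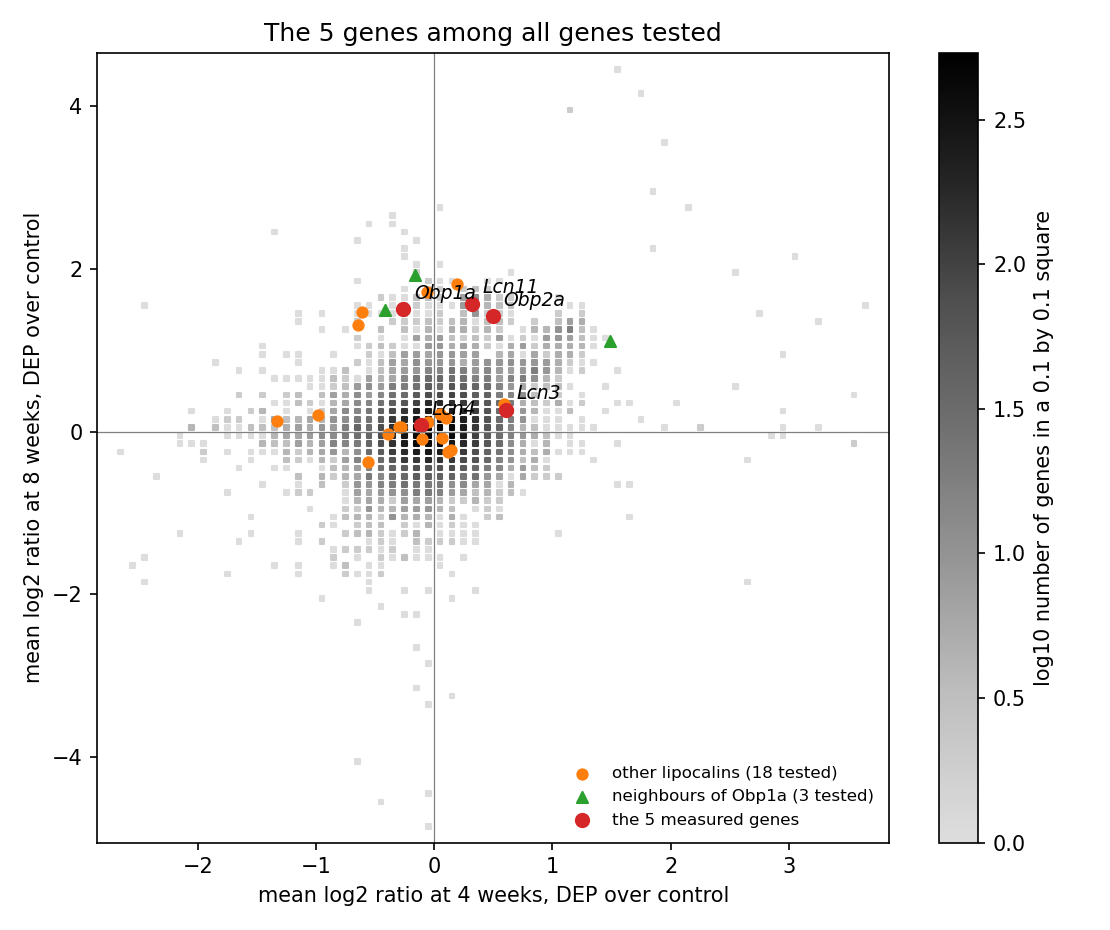
Mean log2 ratio at 4 weeks (horizontal axis) against 8 weeks (vertical axis). Grey squares count all 20664 genes tested, on a log10 scale; red points are the 5 measured genes, orange points the 18 other lipocalins tested and green triangles the 3 tested neighbours of Obp1a. Obp1a, Obp2a and Lcn11 lie at 1.42 or above at 8 weeks. Among the coloured points, Mup1, Mup4, Mup20, Gm14743 and 5430402E10Rik do so too. Obp2a, the lowest of the 3 genes, ranked 151st from the top of all genes at 8 weeks, so grey squares also fill this region.

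The level of each gene in the separate dyes was also read. These levels are log2 intensities after loess and quantile scaling between arrays, and they are open to dye bias. They are built from the mean intensity and the ratio of a probe, so a ratio bias of bright probes enters both dyes. For this reason they cannot show which RNA changed. They are given as a description with no test, and are not compared between probes. For Obp1a the control level was 16.79 to 16.86 on the 4-week arrays and 15.51 to 15.82 on the 8-week arrays, while the DEP level was 16.39 to 16.65 and then 17.02 to 17.26. The control level was thus 1.19 lower and the DEP level 0.57 higher at 8 weeks. The raw signals show the same: control spots read 117353 to 127617 at 4 weeks and 44175.5 to 60174 at 8 weeks, and DEP spots 80186 to 116394 and then 130312 to 145164.

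Lcn11 had a control level of 16.90 to 17.00 at 4 weeks and 16.15 to 16.44 at 8 weeks, with DEP levels of 17.18 to 17.40 and 17.76 to 17.95. The shifts were -0.66 in control and 0.59 in DEP RNA. For Obp2a the control ranges were 16.23 to 16.49 and 15.86 to 16.25, and the DEP ranges 16.82 to 16.96 and 17.17 to 17.64. Lcn3 differed, since its control level was much the same at both times, at 14.82 to 14.92 and 14.78 to 14.87. Its DEP level was 15.36 to 15.59 at 4 weeks and 15.00 to 15.20 at 8 weeks. Lcn4 was lower at 8 weeks in control RNA, at 12.53 to 12.62 against 12.99 to 13.12, and its DEP ranges of 12.73 to 13.14 and 12.62 to 12.73 met at one value. For Obp1a and Lcn11 the control level was thus lower on the second slide, which cannot be told apart from the slide itself.

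**Figure D4:**
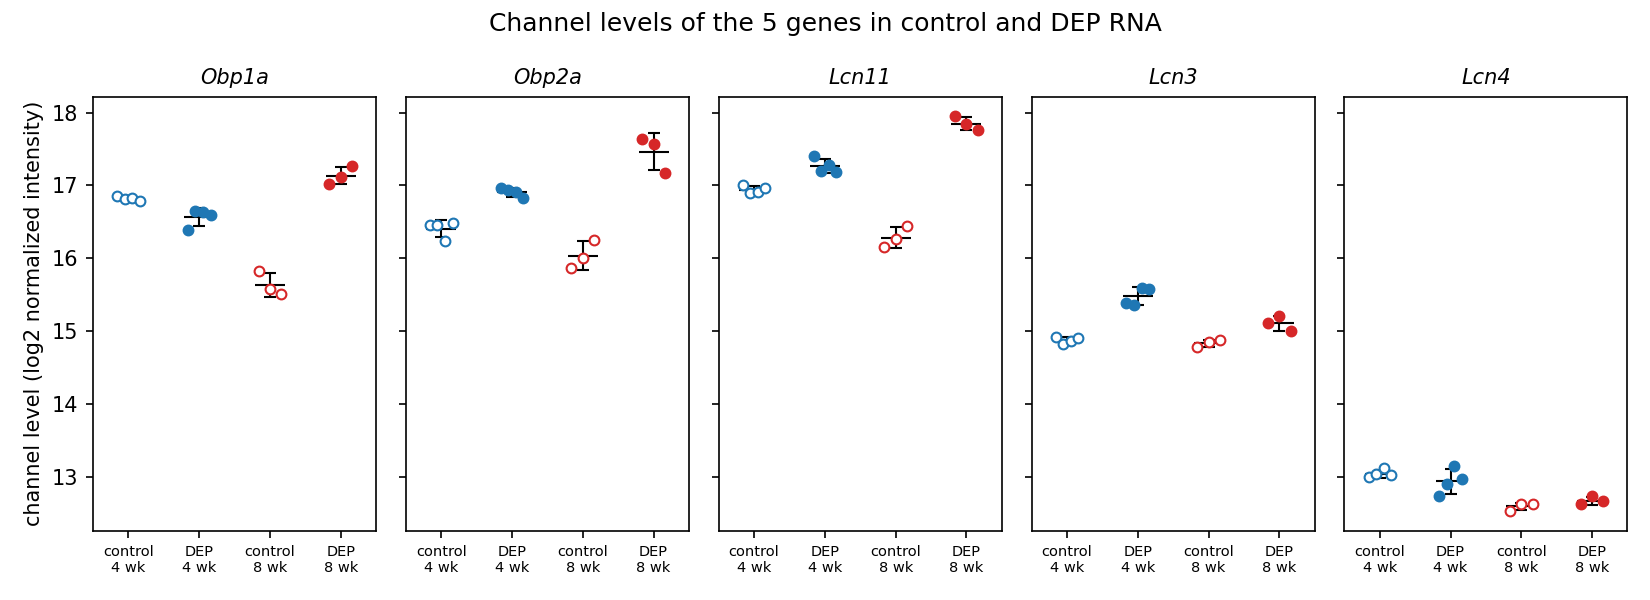
Channel level (log2 normalized intensity, vertical axis) of each gene in control RNA (open circles) and DEP RNA (filled circles) at 4 weeks (blue, n = 4 arrays) and 8 weeks (red, n = 3 arrays), with mean and SD in black. In Obp1a the control level drops from a mean of 16.82 to 15.63 and the DEP level rises from 16.56 to 17.13, while in Lcn3 the control means are 14.88 and 14.83.

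Among themselves the genes formed no single pattern. Over the 7 arrays Obp2a and Lcn11 ran closest, with a root mean square difference of 0.21 between their log2 ratios, against 0.532 for Obp1a and Lcn11, 0.557 for Lcn3 and Lcn4, and 0.696 to 1.06 for the other pairs. Both Obp2a and Lcn11 had replicate 3 as their lowest 8-week array, whereas Obp1a had it as its highest. The median of probes of like intensity was also lowest on that array, at 0.82 for Obp2a, 0.96 for Lcn11 and 0.73 for Obp1a. How far brightness accounts for the closeness of Obp2a and Lcn11 was not tested. Outside the family, Gpr45, an orphan G-protein-coupled receptor gene, was the gene with a symbol that ran closest to Obp2a, with a root mean square difference of 0.165 over the 7 arrays.

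The other lipocalins were looked at as a list of 32 genes, of which 24 had a probe and 18 were tested. At 4 weeks 2 rose and 6 fell, with a median log2 ratio of -0.08, and at 8 weeks 5 rose and 1 fell, with a median of 0.12. In the difference 7 were higher and 1 lower, where 14.9% of all genes were higher and 16.1% lower. The 6 of 18 called at 8 weeks stand beside 37.3% of all genes called, and the 8 of 18 called at 4 weeks beside 38.1%. The median of all genes was 0 at 4 weeks and 0.01 at 8 weeks. Those that rose at 8 weeks were Mup4 (1.81, adjusted p = 1e-06 by limma), Mup20 (1.72), Mup1 (1.47), Mup6 (1.31) and Lcn12 (0.34), named after their values were seen. All of the Mup genes among them were higher on every 8-week array, and relative to probes of like intensity they stayed higher, at 0.47 for Mup4, 0.69 for Mup20, 1.24 for Mup1 and 1.18 for Mup6 (adjusted p of 0.0078 at most). The rise of Lcn12 was lost with median centring (0.05, adjusted p = 0.73).

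At 4 weeks the same list ran from Mup3 (-1.33, adjusted p = 1e-05 by limma) and Mup5 (-0.98) at the low end to Lcn12 (0.59) and Mup4 (0.19, adjusted p = 0.015) at the high end. For Mup4 the 4-week sign turned with the scanner's processed signals (-0.10, adjusted p = 0.17) and relative to probes of like intensity (-0.17, adjusted p = 0.16). Mup1 (-0.61) and Mup6 (-0.64) fell at 4 weeks, so they had a negative ratio at 4 and a positive ratio at 8 weeks. Obp1a had the same signs, though it was not called at 4 weeks. So did Mup2, Mup3, Mup5, Mup20, Lcn6 and Orm2, of which only Mup20 was called at 8 weeks. Lcn2, the iron-siderophore carrier of innate defence known as lipocalin 2, had log2 ratios of 0.05 (adjusted p = 0.6) and 0.21 (adjusted p = 0.06), and with median centring both were below 0, at -0.05 and -0.12. Rbp4, the plasma carrier of retinol, fell at both times, by 0.56 and 0.37 on the log2 scale. Mup genes are near copies of one another and their probes may share targets.

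Genes that lie next to Obp1a on the X chromosome in RefSeq were also read, a list added after seeing the data. Of 6 neighbours 4 had a probe and 3 were tested, and all 3 rose at 8 weeks. Among all genes 37.3% were called at 8 weeks and 20.3% were higher. Gm14743 had a log2 ratio of -0.16 at 4 weeks (adjusted p = 0.21 by limma) and 1.92 at 8 weeks (adjusted p = 1.3e-05), and 5430402E10Rik had -0.42 and 1.49 (adjusted p = 0.0005 and 2.4e-06). Their pattern resembles that of Obp1a, and relative to probes of like intensity they were 1.05 and 0.46 at 8 weeks (adjusted p = 0.0019 and 0.005). Gm5938 differed, being higher at both times, at 1.49 and 1.11. Whether the probes of these neighbours share targets with that of Obp1a was not tested. The 9 neighbours on chromosome 2 include 7 with a probe, of which only Lcn6 and the Myc-related gene Bmyc were tested. Lcn6 was at -0.05 and 0.12 (adjusted p = 0.8 and 0.63), and Bmyc was at 0.13 and 0.40 (adjusted p = 0.1 and 0.0025).

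By their list medians, the enzymes and the neurons that meet odorants in the same mucosa moved down between the times. Obp1a, Obp2a and Lcn11 moved up, while Lcn3 moved down as these lists did (0.61 and 0.27). Beside these and the gland lists below, 38.1% of all genes passed at 4 weeks and 37.3% at 8 weeks. The share that was higher was 21.6% and 20.3%. Of 25 odorant-metabolising enzymes tested, 16 rose and 2 fell at 4 weeks (median log2 ratio 0.24), and 1 rose and 15 fell at 8 weeks (median -0.36). The highest at 4 weeks were Cyp4a12a, a cytochrome P450 (0.79), and Cbr2, a carbonyl reductase (0.64), and the lowest were Cyp2b10 (-0.23) and the carboxylesterase gene Ces1d (-0.18). Of 15 genes of odorant transduction, 10 rose at 4 weeks (median 0.41) and 12 fell at 8 weeks (median -0.46). With median centring 6 rose at 4 weeks. Omp, the marker of mature olfactory neurons, had log2 ratios of 0.89 and -0.43 (adjusted p = 3.9e-05 and 0.0024 by limma). Gnal, the G-protein subunit of olfactory signalling, had 0.61 and -0.72 (adjusted p = 0.00029 and 0.00021).

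Of 18 genes of nasal glands and secretory cells tested, 10 rose and 2 fell at 4 weeks (median 0.36), and 7 rose and 6 fell at 8 weeks (median 0.01). The genes that rose at 8 weeks numbered 3 relative to probes of like intensity, 4 with median centring and 3 with processed signals, and the genes that fell numbered 8, 8 and 7. Those that fell at 4 weeks numbered 5, 1 and 0 in the same settings. The highest at 4 weeks were Dmbt1 (0.85), a mucosal defence glycoprotein gene, and Bpifb1 (0.70), and the lowest were Scgb1a1, the club cell secretoglobin gene (-0.18), and Sox9 (-0.16). At 8 weeks the list ran from Prb1, a proline-rich protein gene (-2.06, adjusted p = 3.7e-06 by limma), and Muc5b, the gene of a gel-forming mucin (-1.54), to Bpifb9b (0.66) and Pigr, the receptor that carries antibodies into secretions (1.64, adjusted p = 4.5e-06), named after their values were seen. Their summed channel level was 505647 to 529679 in control and 633587 to 710800 in DEP RNA at 4 weeks, and 500597 to 522881 and 535177 to 615911 at 8 weeks. In whole tissue, fewer cells of a type and less RNA per cell cannot be told apart.

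Markers of the salivary and lacrimal glands moved most with the 8-week arrays. Of 12 listed genes 8 were tested, and 2 rose and 6 fell at 8 weeks, with a median of -1.48. Amy1, salivary amylase, was at -4.90 (adjusted p = 4.4e-08 by limma) and Smr3a, a submandibular gland protein gene, at -4.45 (adjusted p = 4.7e-08), although both were at -0.07 at 4 weeks. At 4 weeks 2 rose and 4 fell, from Dcpp1 (-0.51) and Dcpp3 (-0.49) to Bhlha15 (0.73) and Pip, the prolactin-inducible protein gene (2.08). The summed level was 83946 to 95566 in control and 105705 to 112089 in DEP RNA at 4 weeks, and 49992 to 53799 and 21003 to 21377 at 8 weeks. The summed level was thus lower in DEP than in control RNA at 8 weeks, although Bhlha15 (0.73, adjusted p = 8.1e-05) and Pip (0.34, adjusted p = 0.024) rose. The part of these genes in the higher odorant-binding protein ratios was not tested.

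Markers of other cells in the sample were read the same way, in short lists. Of all genes, 38.1% passed in either direction at 4 weeks and 37.3% at 8 weeks, and 21.6% and 20.3% rose. Of 5 vomeronasal genes tested among 7 with a probe, 1 rose at 4 weeks, Gnao1 (0.43), and at 8 weeks 1 rose and 1 fell. Their summed level stayed between 3111 and 4073 in all groups, and no probe was matched to Trpc2, the defining ion channel of these neurons. Of 8 markers of mature olfactory neurons, all drawn from the transduction list, 5 rose at 4 weeks (3 with median centring) and 7 fell at 8 weeks. Of 5 sustentacular markers tested, 4 rose at 4 weeks, and 1 rose and 4 fell at 8 weeks. Of 6 ciliated cell markers 4 rose at 4 weeks and 2 at 8 weeks, where median centring gave 1 that rose and 2 that fell. Of 6 squamous and basal markers 1 rose and 4 fell at 4 weeks, and 2 rose and 2 fell at 8 weeks.

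**Figure D5:**
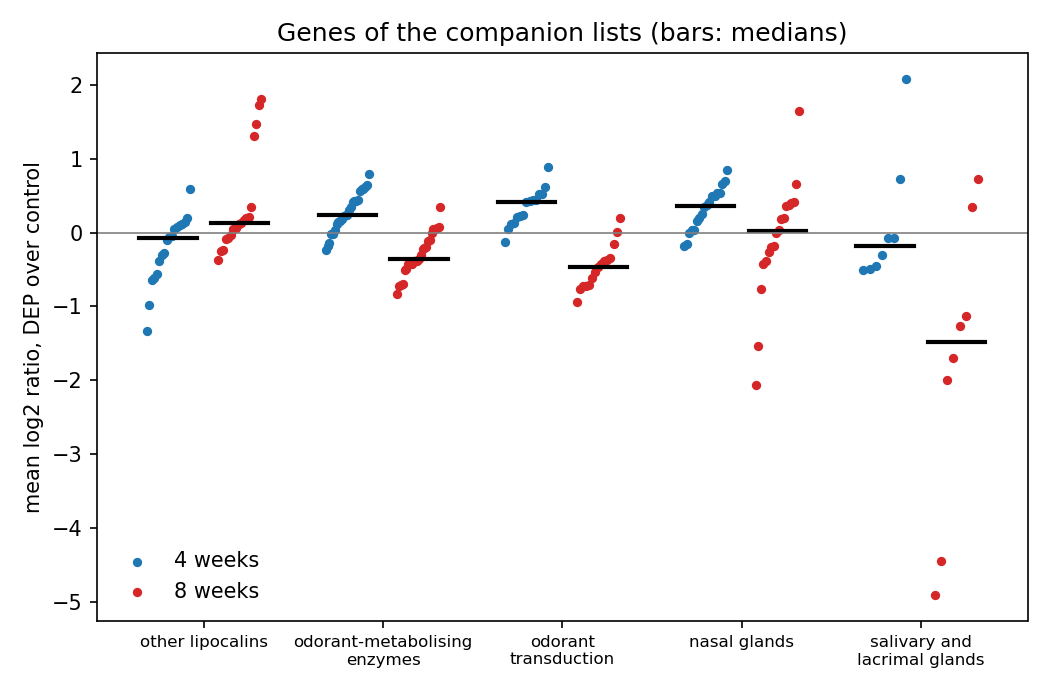
Mean log2 ratio of DEP over control (vertical axis) of each tested gene in 5 gene lists (horizontal axis) at 4 weeks (blue) and 8 weeks (red), with list medians as black bars. The transduction list has medians of 0.41 and -0.46, the salivary and lacrimal list reaches -4.90 at 8 weeks, and Mup1, Mup4, Mup6 and Mup20 stand above the other lipocalins at 8 weeks.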

How the data were processed

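Total RNA was measured on 7 2-colour Agilent 4x44K mouse arrays. The deposited files hold the output of Feature Extraction 10.10.1.1: the median intensity of each spot and its background, not normalized, a processed intensity that the software background-subtracted and dye-normalized, flags, and the log10 ratio of the processed signals. The authors' GeneSpring normalization is not in the values used here.

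Median intensities were corrected by normexp (offset 50, fitted without spots marked as background outliers) and normalized within arrays by loess with limma 3.58.1 in R 4.3.3. Non-uniform spots were left out and spots of a probe averaged, giving 39429 probes. A probe was tested (25162 were) when at least 3 arrays had it well above background in 1 or both channels. One mean per exposure time was fitted over 7 arrays, with Benjamini-Hochberg adjustment over all probes tested. A gene takes the value of its brightest tested probe. Names come from RefSeq, which matched 28330 probes. The number of arrays limits the precision, and an offset shrinks the ratios of dim probes. The steps were tested on simulated arrays with a constant dye factor at every intensity, which could not test a bias of bright probes.

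Named were the 5 genes, in each list the 2 highest and 2 lowest 4-week ratios among genes that passed, defining markers, Lcn2 and the 5 genes most like the gene with the largest mean ratio. One of these is not reported here, and transcripts without a symbol are not named. The genes and lists were chosen with earlier results of these data known, and the added lists after seeing these. Alternatives were another offset, a background fit on all spots, median centring, processed signals, other filters, a median over probes, 1 exposure time at a time, the methods' test, leaving out each array, the replicate number as a block and centring on probes of like intensity.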

Additional observations from a re-analysis of the deposited data

Results flagged for a closer look

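Among the 4-week arrays, the log2 ratio of Obp1a on replicate 1 (-0.47) lay far from the other 3 (-0.16 to -0.20). The other 4 genes had no such array. Chance flags about 1 in 20 groups of this kind, and 5 were looked at. Without that array Obp1a was at -0.18 at 4 weeks.

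The effect of exposure differed between 8 and 4 weeks, by the test of the difference, for Obp1a (1.76 on the log2 scale), Lcn11 (1.24), Obp2a (0.93) and Lcn3 (-0.34). The slides cannot be told apart from the times in these differences.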

How the results depend on the processing

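The rise of Obp1a, Obp2a and Lcn11 at 8 weeks passed the test under all 17 alternatives each, at log2 ratios of 0.60 to 1.65, 0.38 to 1.67 and 0.47 to 1.69, and so did the higher Lcn3 at 4 weeks (0.47 to 0.65). Counts without 1 array were 2 to 4 genes changed at 4 weeks, 3 to 4 at 8 weeks and 3 to 4 in the difference, and 0, 3 and 2 to 3 past 2-fold. Relative to probes of like intensity, 0 genes were past 2-fold at 8 weeks and 1 in the difference. Among called values these turned sign: Lcn11 at 4 weeks with processed signals (-0.06) and Obp2a at 4 weeks relative to probes of like intensity (-0.13). Lcn4 at 8 weeks, not called in either, went to -0.14 with median centring. With no filter on dim probes the Lcn3 difference missed the threshold (adjusted p = 0.056). Obp1a at 4 weeks, not called, passed under 8 of 17 alternatives, at adjusted p of 0.0051 to 0.049. The replicate numbers do not pair the arrays, since same-numbered arrays of 4 and 8 weeks correlated at -0.007 to 0.017 in their deviations. With the number as a replicate block, 2 of the 5 genes (Obp1a and Lcn11) changed between 8 and 4 weeks in place of 4 (Obp2a 0.87, adjusted p = 0.065, Lcn3 -0.31, adjusted p = 0.16), and 3216 of all genes in place of 6388. Processed signals put 1320 genes past the study's thresholds at 4 weeks, 1454 at 8 weeks and 2074 in the difference, against 269, 608 and 633. At an adjusted p of at most 0.05 the methods' test called 4336 and 4815 genes at 4 and 8 weeks, against 7878 and 7708, and fitting the background on all spots called 5043 at 4 weeks. Median centring lowered the share of higher calls to 42.5%, 27.0% and 28.9% at 4 weeks, 8 weeks and in the difference, from 56.7%, 54.6% and 48.1%, and moved the median of all genes to -0.11 at 8 weeks. Processed signals gave shares of 67.9% at 4 weeks and 35.6% in the difference. The causes were not tested.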
